A study of Arabidopsis thaliana with 6 samples.

Results

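The type-A response regulators are a small family of Arabidopsis thaliana genes that cytokinin, a plant hormone of cell division and greening, switches on and whose proteins then dampen the cytokinin response. The family was taken as 10 locus identifiers, ARR3 to ARR9 and ARR15 to ARR17, out of 32948 genes in the deposited table, and all 10 were found in it. Transcripts were measured by poly(A)-selected RNA-seq in 3 libraries of cnd1-3, a mutant line, and 3 libraries of Col-0, the wild-type accession, all made from seedlings. The comparison asks how the mutant transcriptome differs from the wild type; the series title names CND1 in connection with genome stability in the nucleus and the chloroplast. Neither the kind of mutation, the seedling age nor the growth conditions could be taken from the labels. Whether replicate libraries came from plants grown apart is likewise unstated, so p-values measure the spread among these libraries, which may be technical. CND1 was not matched to a locus, so no targeted gene checked the genotype labels.

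Cytokinin is perceived by membrane histidine kinases of the AHK family. The phosphate passes through AHP phosphotransfer proteins to response regulators in the nucleus. The type-B response regulators bind DNA and turn genes on, among them the type-A genes, which carry the same receiver domain but no DNA-binding domain and act as negative feedback. Several type-A genes respond to cytokinin within minutes and serve as readouts of the pathway, and in the shoot meristem ARR7 and ARR15 are repressed by the stem cell regulator WUSCHEL.

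The library totals used in the FPKM scaling, recovered from the FPKM values, were 22125814 to 23081866 in cnd1-3 and 23290031 to 30455907 in Col-0. Whether these totals hold all mapped read pairs or only those assigned to genes is not known. Within a genotype, pairs of libraries had correlations of log2 level over all genes of 0.989 to 0.992. Genes that mark roots were nearly absent from these seedling libraries: 8 of 10 root markers stayed below 0.5 FPKM in all 6 libraries, PLT1, PLT2, RHD6 and EXPA7 among them at 0, and the summed root list was 12.4 to 12.8 FPKM in cnd1-3 and 11.6 to 13.2 in Col-0. That sum was nearly all SCR and SHR, which lay apart without overlap in opposite directions, SCR at 114.9% and SHR at 69.5% of the Col-0 mean (limma unadjusted p = 0.0296 and 0.0146, adjusted 0.128 and 0.0858). Of 7 shoot meristem markers 6 stayed below 0.5 FPKM, with STM, WUS and KNAT1 at 0. Vascular markers summed to 44.4 to 47.5 FPKM in cnd1-3 and 37.3 to 47.9 in Col-0, more than for any other gene from SUC2, a phloem sucrose transporter. Among the 6, ATHB8, PXY and TMO5 were lower in every mutant library, at 71.4%, 86.9% and 60.2% of the Col-0 mean, and APL was higher in every one, at 124.2%. Limma called 0 of the 6 and voom 0, with 3 at an unadjusted p under 0.05, as were 4893 of all 17096 tested genes. All 5 flower markers stayed below 0.5 FPKM. The 5 green leaf markers summed to 55780 to 61880 FPKM in cnd1-3 and 62090 to 63910 in Col-0. Of these genes CAB2 and CAB3 were lower in the mutant (log2 fold changes -1.21 and -0.38, limma adjusted p = 0.00373 and 0.0301). CAB1, LHCB2.1 and RBCS1A did not pass, with log2 fold changes of -0.09, -0.13 and 0.13 (limma adjusted p = 0.623, 0.537 and 0.45). How well reads can be told apart among CAB1, CAB2 and CAB3 was not tested.

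ARR5, ARR6, ARR7 and ARR15 fell in cnd1-3, to between 52.1% and 71% of their Col-0 means. ARR4, ARR8, ARR9 and ARR16 did not pass the test, and ARR3 and ARR17 had at most 3 reads in any library. Levels are given in FPKM, read pairs scaled to exon length and to the library total, and changes as log2 fold changes of FPKM plus 0.5 from limma, with an adjusted p threshold of 0.05. Of 8 members above the minimum mean level of 0.5 FPKM, 4 were lower and 0 higher, where 7.59% of all 17096 tested genes were lower, 3.5% higher and 11.1% changed in either direction. At an unadjusted p under 0.05 the lower members were 5, with ARR4, and the higher 0. Over all 17096 tested genes 4893 were under it, in either direction. With voom, run on reads recovered from FPKM, 4 members were lower and 0 higher. Of all 16765 genes in that fit 1427 were lower and 687 higher. The log2 fold change was below 0 in 7 of the 8, and in 10234 of all 17096 tested genes. Of the 7, ARR16 turned to 0.05 with the trend of GC content and length removed. The median was -0.34 over the 8 members, against -0.05 over all tested genes. The members that passed are described here by counts, since the family was chosen with earlier results of these data known. Whether fewer cells that transcribe these genes or less RNA per cell gave the lower values cannot be told apart in bulk RNA, and the part of the marker differences above in these results was not tested.

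**Figure D1:**
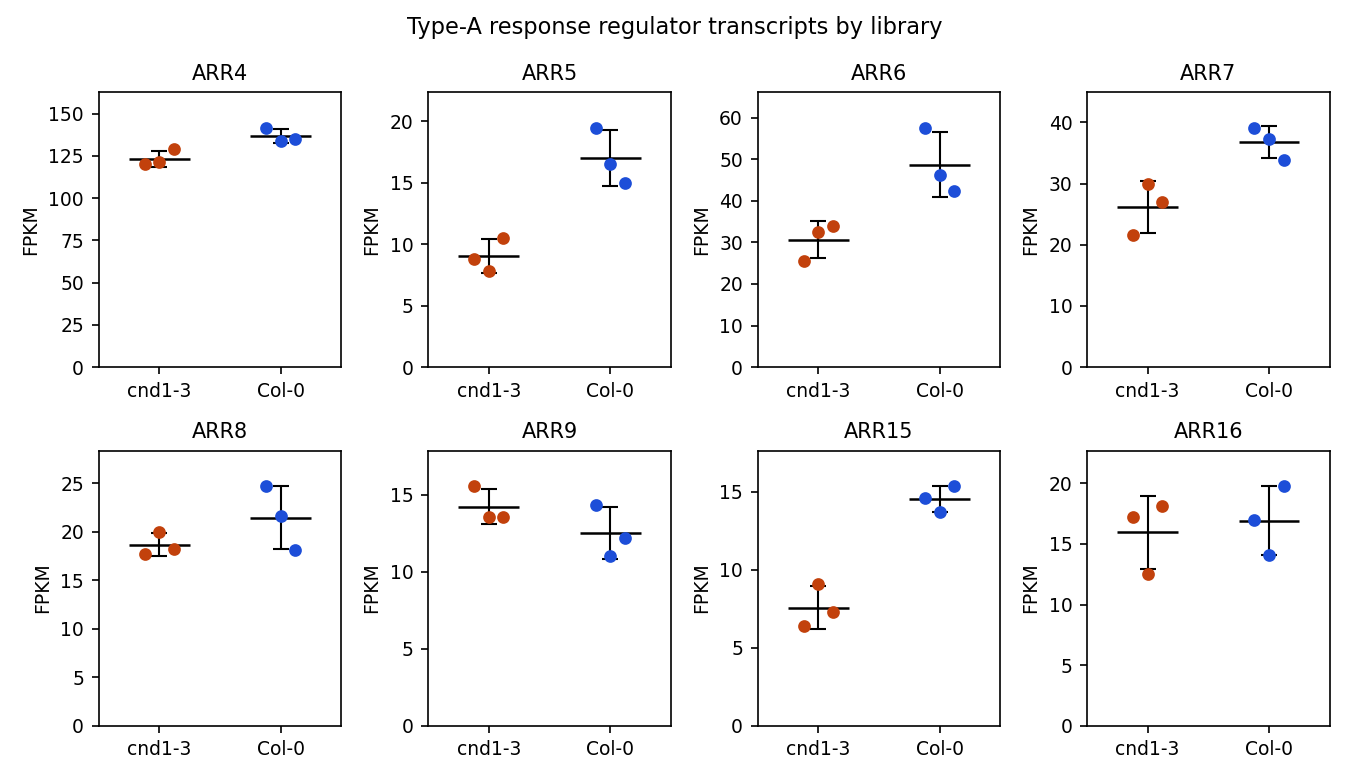
FPKM (vertical axis, from 0) of the 8 tested type-A genes in each library, cnd1-3 on the left and Col-0 on the right; points are libraries, horizontal bars means and error bars the SD of 3 libraries. The cnd1-3 points lie below all Col-0 points for ARR4, ARR5, ARR6, ARR7 and ARR15 and overlap them for ARR8, ARR9 and ARR16.

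The sequence before the start of the 4 lower genes is shown because the type-A genes are known targets of the type-B regulators, whose DNA-binding domain recognises short motifs around AGAT. The 300 bases before each annotated start were taken from the TAIR10.1 genome, written 5′ to 3′ on the strand of the gene, with capitals on every match to the searched motifs on either strand. The motifs were AGATT and the variant AGATC. The longer AGATCT contains the variant on both strands. ARR4, which did not pass the test, is given for comparison. The windows are chr1:28133026-28133325 for ARR15, chr3:17760951-17761250 for ARR5, chr5:25254319-25254618 for ARR6, chr1:6579315-6579614 for ARR7 and chr1:3444361-3444660 for ARR4, all on the minus strand.
ARR15: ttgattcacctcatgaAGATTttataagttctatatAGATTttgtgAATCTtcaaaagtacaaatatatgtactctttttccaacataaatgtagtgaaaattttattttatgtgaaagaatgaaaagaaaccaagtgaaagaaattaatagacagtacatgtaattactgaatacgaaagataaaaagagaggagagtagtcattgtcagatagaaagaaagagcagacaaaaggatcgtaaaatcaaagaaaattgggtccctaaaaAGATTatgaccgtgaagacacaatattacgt
ARR5: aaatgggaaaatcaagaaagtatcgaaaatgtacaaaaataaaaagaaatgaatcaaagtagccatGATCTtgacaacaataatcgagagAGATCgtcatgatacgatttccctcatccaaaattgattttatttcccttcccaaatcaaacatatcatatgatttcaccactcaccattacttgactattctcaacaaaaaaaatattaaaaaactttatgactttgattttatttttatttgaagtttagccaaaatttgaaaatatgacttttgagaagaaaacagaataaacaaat
ARR6: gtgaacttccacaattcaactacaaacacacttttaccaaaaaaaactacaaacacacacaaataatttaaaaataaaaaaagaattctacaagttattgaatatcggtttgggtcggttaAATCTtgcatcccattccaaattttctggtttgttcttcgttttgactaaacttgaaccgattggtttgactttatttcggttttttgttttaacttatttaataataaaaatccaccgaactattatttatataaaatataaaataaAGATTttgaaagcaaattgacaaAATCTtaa
ARR7: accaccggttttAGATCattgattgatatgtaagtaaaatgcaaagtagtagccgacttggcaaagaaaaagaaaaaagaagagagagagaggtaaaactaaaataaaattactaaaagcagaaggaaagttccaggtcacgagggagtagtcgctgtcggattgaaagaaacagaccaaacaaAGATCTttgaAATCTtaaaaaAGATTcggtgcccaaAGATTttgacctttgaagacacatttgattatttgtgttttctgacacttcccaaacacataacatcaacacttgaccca
ARR4: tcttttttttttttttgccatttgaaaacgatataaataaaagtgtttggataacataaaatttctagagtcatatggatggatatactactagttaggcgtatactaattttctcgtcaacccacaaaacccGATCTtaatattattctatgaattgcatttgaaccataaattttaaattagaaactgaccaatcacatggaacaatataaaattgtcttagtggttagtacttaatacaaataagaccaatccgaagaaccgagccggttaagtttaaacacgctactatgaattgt

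ARR15 and ARR5 had the largest fitted falls of the family. ARR15 (AT1G74890, chromosome 1, 28131447 to 28133025, minus strand, TAIR10.1), a feedback repressor close in sequence to ARR7, had 6.4, 9.09 and 7.27 FPKM in the 3 cnd1-3 libraries, against 14.6, 13.7 and 15.4 in the 3 Col-0 libraries. All mutant values lay below all wild-type values, with 154 to 217 reads per library in cnd1-3 and 386 to 481 in Col-0. The mean was 7.59 ± 1.37 FPKM in cnd1-3 and 14.6 ± 0.831 in Col-0 (SD, n = 3 each), a log2 fold change of -0.91 (SE 0.12, 95% interval -1.18 to -0.64, limma adjusted p = 0.00283). ARR5 (AT3G48100, chromosome 3, 17758427 to 17760950, minus strand, given as RR5 in the annotation) is among the genes most often used as a cytokinin reporter. It had 8.78, 7.85 and 10.5 FPKM in cnd1-3, against 19.5, 16.5 and 15 in Col-0, again without overlap. Its mean was 9.05 ± 1.35 FPKM in cnd1-3 and 17 ± 2.27 in Col-0, a log2 fold change of -0.88 (SE 0.13, 95% interval -1.16 to -0.59, adjusted p = 0.00399). Only 2.07% of the tested genes had a log2 fold change at or below that of ARR15, and 2.29% at or below that of ARR5. Both calls held in all 18 alternative fits, with adjusted p-values from 0.00112 to 0.0129 for ARR15 and from 0.00144 to 0.0203 for ARR5.

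ARR6 and ARR7, with higher transcript levels, had smaller fitted falls. ARR6 (AT5G62920, chromosome 5, 25252007 to 25254318, minus strand), the member closest to ARR5 in sequence and an early cytokinin-induced gene, had 25.6, 32.4 and 34 FPKM in cnd1-3, against 57.5, 46.2 and 42.3 in Col-0. Its lowest wild-type library lay above its highest mutant library. The mean was 30.7 ± 4.5 FPKM in cnd1-3 and 48.7 ± 7.89 in Col-0, a log2 fold change of -0.66 (SE 0.14, 95% interval -0.97 to -0.35, limma adjusted p = 0.019). ARR7 (AT1G19050, chromosome 1, 6577833 to 6579314, minus strand), which WUSCHEL represses, had 21.5, 29.9 and 26.9 FPKM in cnd1-3, against 39.1, 37.3 and 33.9 in Col-0. Its groups did not overlap, with the lowest value in cnd1-3 replicate 1. Its mean was 26.1 ± 4.24 FPKM in cnd1-3 and 36.8 ± 2.63 in Col-0, a log2 fold change of -0.50 (SE 0.12, 95% interval -0.76 to -0.23, adjusted p = 0.0308). The call of ARR6 was lost without cnd1-3 replicate 1 (adjusted p = 0.0564) and without Col-0 replicate 2 (0.0562). That of ARR7 was lost without cnd1-3 replicate 1 or 3 (0.0706 and 0.0602), without Col-0 replicate 1 or 2 (0.0865 and 0.0975), with no minimum level (0.0578) and without the intensity trend (0.0598).

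The 3 cnd1-3 libraries were not alike in these genes. Replicate 1 of cnd1-3 was the lowest mutant library for ARR4, ARR6, ARR7, ARR8 and ARR15, though not for ARR5, whose lowest value was in replicate 2. Among the wild-type libraries Col-0 replicate 1, which also had the largest recovered library total of the 6, was the highest for ARR4 to ARR9. Without cnd1-3 replicate 1, or without Col-0 replicate 2, the number of lower members was 2 in place of 4. The calls over all genes dropped likewise, to 648 and 611 lower genes in place of 1298. Without Col-0 replicate 1 the lower members were 3, with 944 lower genes over all. The log2 fold change of ARR5 was then -0.78 and that of ARR15 -0.91.

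**Figure D2:**
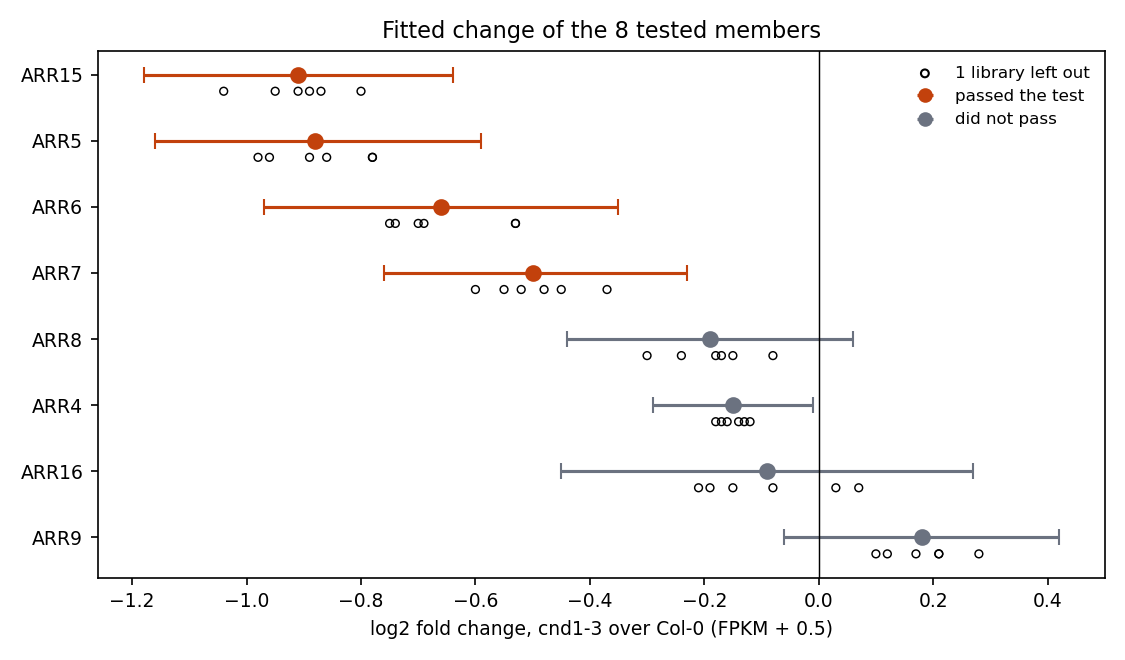
Log2 fold change of FPKM plus 0.5, cnd1-3 over Col-0 (horizontal axis), of the 8 tested type-A genes, sorted by size; filled points are the fit on 6 libraries, bars its 95% interval, and open points the fits that each left out 1 library. The open points of ARR15, ARR5, ARR6 and ARR7 all lie below 0, between -1.04 and -0.37, and those of ARR16 lie on both sides of 0.

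The lower genes did not share a pattern of these motifs in the window. AGATT was found 4 times before ARR15, 3 times before ARR6, 3 times before ARR7 and not before ARR5, whose window held AGATC 2 times. ARR7 also had 3 matches to AGATC, 2 of them inside its single AGATCT. Of the members that did not pass, ARR4 had 1 match to AGATC and none to AGATT, ARR8 had 1 to AGATT, ARR9 had 2 to AGATT and ARR16 had 2 to AGATT and 3 to AGATC. Among the 300-base windows of 27443 nuclear protein-coding genes 70.7% held AGATT, 31.7% AGATC and 7.21% AGATCT, so that a match to AGATT is common. The median window had 1 match to AGATT and 0 to AGATC. How often a window holds 3 or 4 matches to AGATT was not tested. A match describes the letters and is not a shown binding site.

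ARR4 was by far the most abundant member and did not pass the test. ARR4 (AT1G10470, chromosome 1, 3441988 to 3444360, minus strand), a type-A regulator that also binds the red light receptor phytochrome B, had 120.1, 121 and 129 FPKM in cnd1-3, against 142, 134 and 135 in Col-0. The groups did not overlap, and the mean was 123 ± 4.8 FPKM in cnd1-3 and 137 ± 4.26 in Col-0. Its log2 fold change of -0.15 (SE 0.06, 95% interval -0.29 to -0.01) had a limma adjusted p = 0.155, and it was -0.04 with the trend of GC content and length removed. Counting ARR4, 5 of the 8 tested members had all mutant values below all wild-type values, where this held for 21.5% of the tested genes; in 33.9% the groups did not overlap in either direction.

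ARR8, ARR9 and ARR16 did not pass the test. ARR8 (AT2G41310, chromosome 2, 17221840 to 17224880, plus strand, given as RR3 in the annotation), a repressor of cytokinin responses when overexpressed, had 17.8, 20 and 18.3 FPKM in cnd1-3, against 24.7, 21.6 and 18.2 in Col-0. The lowest wild-type library lay within the mutant range, and the log2 fold change was -0.19 (SE 0.11, 95% interval -0.44 to 0.06, limma adjusted p = 0.305). It was -0.08 without Col-0 replicate 1, -0.30 without Col-0 replicate 3 (adjusted p = 0.0744) and -0.11 with the trend of GC content and length removed. ARR9 (AT3G57040, chromosome 3, 21109059 to 21111567, plus strand), the nearest relative of ARR8, had 15.6, 13.6 and 13.6 FPKM in cnd1-3, against 14.3, 11 and 12.2 in Col-0. It was the single tested member with a fold change above 0, at 0.18 (SE 0.11, 95% interval -0.06 to 0.42, adjusted p = 0.302). With the trend of GC content and length removed ARR9 was at 0.34 (adjusted p = 0.078, and 0.0251 with a replicate block), and it was 0.12 without cnd1-3 replicate 1, and 0.28 and 0.10 when Col-0 replicate 1 or 2 was left out. ARR16 (AT2G40670, chromosome 2, 16969673 to 16972113, plus strand, given as RR16), also studied in the stomatal lineage of the leaf, had 17.2, 12.5 and 18.1 FPKM in cnd1-3, against 16.9, 14.1 and 19.8 in Col-0. Its groups overlapped almost wholly, with a log2 fold change of -0.09 (SE 0.16, 95% interval -0.45 to 0.27, adjusted p = 0.756). Replicate 2 gave the lowest ARR16 value in both genotypes. The lower bounds of ARR8 and ARR16 lie close to the value fitted for ARR7, so that a fall of that size was not far outside their intervals.

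ARR3 and ARR17 were at the limit of detection. ARR3 (AT1G59940, chromosome 1, 22065617 to 22067233, minus strand), usually placed beside ARR4 in the family tree, had 0, 2 and 3 reads in the cnd1-3 libraries and 0, 2 and 1 in the Col-0 libraries. ARR17 (AT3G56380, chromosome 3, 20905264 to 20906397, plus strand, given as RR17), the closest relative of ARR16, had 0, 2 and 0 reads in cnd1-3 and 0, 3 and 0 in Col-0. With at most 3 reads in any library no fold difference could be given, and a difference was not detectable at this depth.

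Within the family the order of levels was led by the same genes in both genotypes. ARR4 stood first, at percentile 96 of the mean levels of all tested genes, followed by ARR6, ARR7 and ARR8. In cnd1-3 ARR16, ARR9, ARR5 and ARR15 came next, and the ranges overlapped between ARR8 and ARR16, between ARR16 and ARR9 and between ARR5 and ARR15, with ARR5 and ARR15 below all values of ARR9. In Col-0 the order after ARR8 was ARR5, ARR16, ARR15 and ARR9, and from ARR8 on each range overlapped that of the next gene, so that neighbours did not differ beyond their spread. ARR6 and ARR7 overlapped in cnd1-3 and did not in Col-0.

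Summed over the 10 members, the level was 233, 247 and 258 FPKM in cnd1-3, against 328, 294 and 292 in Col-0. Mean sums were 246 ± 12.4 FPKM in cnd1-3 and 305 ± 20.4 in Col-0. The 4 genes that fell, grouped here by that result and therefore without a test, made up 29.8% ± 2.77 of the sum in cnd1-3 and 38.3% ± 1.67 in Col-0. ARR4 made up 50.2% ± 1.24 of it in cnd1-3 and 44.9% ± 1.63 in Col-0.

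**Figure D3:**
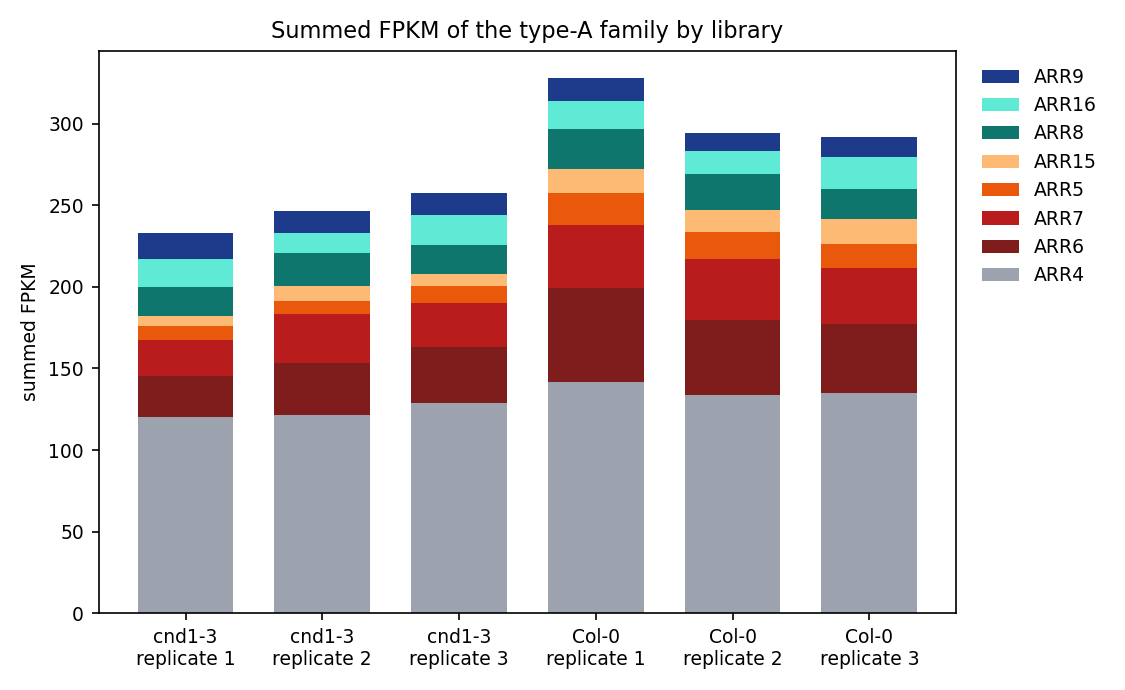
Summed FPKM of the type-A genes (vertical axis, from 0) in each of the 6 libraries, with 1 colour a gene; ARR3 and ARR17, with at most 3 reads a library, are not drawn. The bars reach 233 to 258 FPKM in cnd1-3 and 292 to 328 in Col-0, and the red to orange segments of ARR6, ARR7, ARR5 and ARR15 are shorter in the mutant.

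Close relatives were compared within each library, since most members have a sister gene. Coding sequences were 79.6% identical between ARR5 and ARR6, 73.5% between ARR7 and ARR15, 78.4% between ARR8 and ARR9, 79.4% between ARR16 and ARR17 and 54.2% between ARR3 and ARR4, against 38% to 66.6% in the other 40 pairs. The longest stretch of exon sequence shared by any of the 45 pairs was 41 bases, shorter than a read of 150 bp. The log2 ratio of ARR7 to ARR15 was 1.72 ± 0.09 in cnd1-3 and 1.31 ± 0.16 in Col-0, higher in every mutant library (exact two-sided permutation test, p = 0.1, the smallest that 3 against 3 libraries can give, and 0.25 adjusted over 5 pairs). That of ARR8 to ARR9 was 0.38 ± 0.18 in cnd1-3 and 0.75 ± 0.19 in Col-0, lower in every mutant library (exact p = 0.1, adjusted 0.25). For ARR5 to ARR6 it was -1.71 ± 0.25 in cnd1-3 and -1.49 ± 0.05 in Col-0, with overlapping values (exact p = 0.2, adjusted 0.25). This exact test cannot reach the threshold with 3 against 3 libraries, and the ratios were not tested otherwise. The other pairs hold ARR3 and ARR17, whose few reads leave their ratios without meaning, although they are counted in the adjustment (exact p = 0.2 and 0.8).

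Overlapping genes touched 3 members. ARR6 shares 348 bases of its locus with AT5G62910, a RING/U-box protein gene on the opposite strand, whose mean was 11.3 ± 0.685 FPKM in cnd1-3, against 12.7 ± 0.26 FPKM in Col-0 (log2 fold change -0.17, limma adjusted p = 0.174). ARR8 and ARR9 each overlap an antisense long noncoding RNA gene, AT2G09250 and AT3G08825, both listed at 0 in all libraries. The labels do not state that the libraries keep the strand, so reads of overlapping genes on opposite strands cannot be told apart there.

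**Figure D4:**
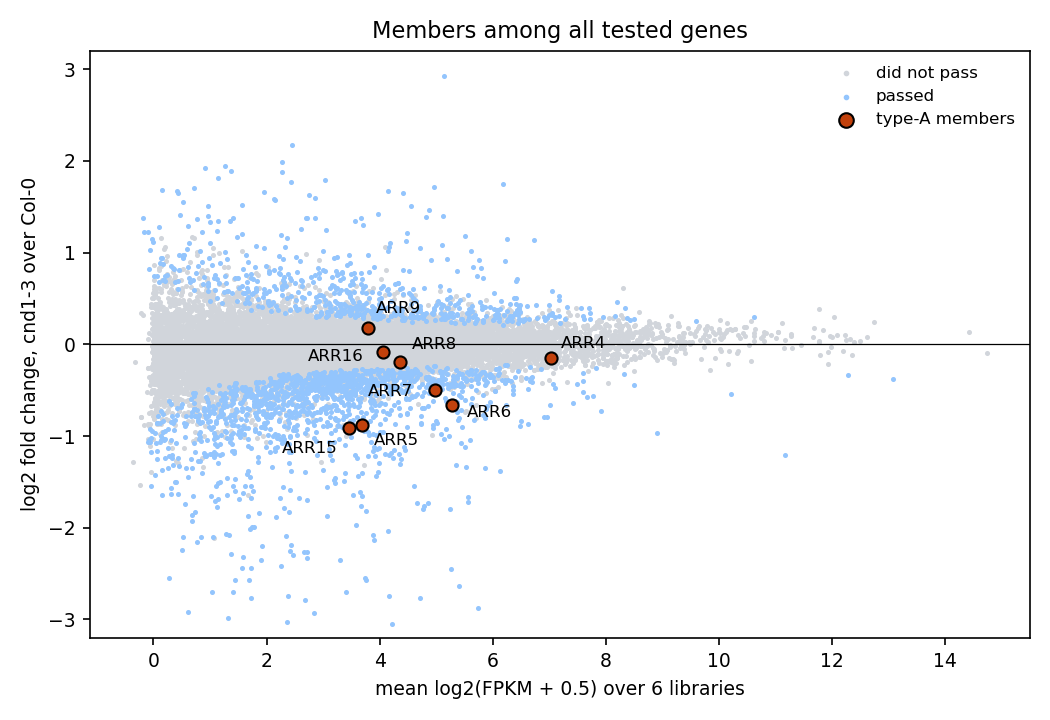
Log2 fold change, cnd1-3 over Col-0 (vertical axis), against mean log2 of FPKM plus 0.5 over 6 libraries (horizontal axis) for all tested genes, with those that passed the test in blue, those that did not in grey, and the 8 tested type-A genes in orange; 7 genes lie outside the plotted range of 3.2 either way. ARR15, ARR5, ARR6 and ARR7 lie among the lower genes, between -0.91 and -0.50, and ARR4 lies far to the right near 0.

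Upstream of the type-A genes, the receptor AHK4 fell and the other receptors did not pass. AHK4, also called CRE1 or WOL, had 5.67, 7.84 and 7.39 FPKM in cnd1-3, against 11.7, 10.4 and 9.63 in Col-0. Its values did not overlap between genotypes, and as for ARR6, ARR7 and ARR15 the lowest was in cnd1-3 replicate 1. The log2 fold change was -0.58 (SE 0.13, limma adjusted p = 0.0233), and the call was lost without cnd1-3 replicate 1 (0.0585), Col-0 replicate 1 (0.0702) or Col-0 replicate 2 (0.0713). The receptors AHK2 and AHK3 differed by -0.16 and 0.01 on the log2 scale (adjusted p = 0.305 and 0.963).

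Of 6 phosphotransfer protein genes 4 were tested, 1 rose and 0 fell. AHP4 had 2.34, 1.83 and 2.22 FPKM in cnd1-3, against 1.23, 1.34 and 1.14 in Col-0 (log2 fold change 0.60, SE 0.13, limma adjusted p = 0.0255). This low-level call was lost in 6 of 17 alternatives, with adjusted p-values up to 0.103, among them voom on recovered reads (0.0584) and leaving out each library except cnd1-3 replicate 2. AHP6, a pseudo-phosphotransfer protein that inhibits the pathway, was listed at 0 in all libraries.

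No type-B regulator passed. Of 11 such genes 5 were tested, limma and voom each called 0 of them, 1 had an unadjusted p under 0.05, and the median log2 fold change was 0.06. That gene was ARR1, at 3.83 ± 0.0902 FPKM in cnd1-3 and 4.57 ± 0.309 FPKM in Col-0, lower in every mutant library (log2 fold change -0.23, SE 0.09, limma adjusted p = 0.145). ARR14 and ARR12, with the highest means over the 6 libraries, averaged 14.6 ± 0.669 and 4.22 ± 0.499 FPKM in cnd1-3, against 14.1 ± 2.11 and 4.38 ± 0.345 in Col-0 (adjusted p = 0.735 and 0.8). The type-C regulators ARR22 and ARR24 were listed at 0. Neither of the 2 tested genes for the F-box proteins KMD1 and KMD2, which send type-B regulators to degradation, passed in limma or voom, and 0 had an unadjusted p under 0.05 (adjusted p = 0.448 and 0.939).

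Hormone supply showed no called change outside transport. Of 19 synthesis genes 6 were tested. Limma called 0 of them and voom 1, which was also the one with an unadjusted p under 0.05, LOG8, whose enzyme releases active cytokinin from its nucleotide form. Its mean was 23.8 ± 1.91 FPKM in cnd1-3, against 19 ± 1.79 FPKM in Col-0 (log2 fold change 0.32, SE 0.09, adjusted p = 0.058), and the difference passed in 5 alternatives, such as median-ratio scaling (0.0257) and voom (0.039). IPT9, which modifies tRNA, had a mean of 19.5 ± 1.03 FPKM in cnd1-3, against 19.9 ± 0.287 FPKM in Col-0 (adjusted p = 0.804). Of 10 genes for breakdown and conjugation 5 were tested; 2 had an unadjusted p under 0.05, and limma and voom both called 0. The glucosyltransferase gene UGT76C2 and the cytokinin oxidase gene CKX7, the most abundant of them, differed by -0.10 and 0.19 on the log2 scale (adjusted p = 0.507 and 0.278).

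Of 7 transport genes 4 were tested, PUP14 fell and 0 rose. At an unadjusted p under 0.05 were 3, PUP14, ENT3 and AZG1. ENT3 and AZG1 differed by 0.73 and -0.34 on the log2 scale and did not pass (limma adjusted p = 0.0984 and 0.151). The purine permease PUP14 takes up cytokinins at the plasma membrane. PUP14 had 14, 12.4 and 15 FPKM in cnd1-3, against 27.7, 49.8 and 50.5 in Col-0. The mutant libraries were close together and the wild-type libraries spread widely, with Col-0 replicate 1 the lowest of them. The mean of 13.8 ± 1.32 FPKM in cnd1-3 was 32.4% of the Col-0 mean of 42.6 ± 13, a log2 fold change of -1.54 (SE 0.21, limma adjusted p = 0.00302) that passed in all 18 alternatives. The fitted change was larger than that of any type-A gene.

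Of 6 listed cytokinin response factors, CRF1 to CRF6, all were tested, 2 fell and 0 rose. These are AP2/ERF transcription factors beside the type-A genes on the output side, and the list does not hold the whole family. CRF5 had 2.42, 4.27 and 3.84 FPKM in cnd1-3, against 6.31, 6.01 and 7.12 in Col-0 (log2 fold change -0.83, SE 0.17, limma adjusted p = 0.0204). CRF3 had 0.744, 1.12 and 0.718 FPKM in cnd1-3, against 1.49, 2.13 and 2.25 in Col-0 (-0.85, SE 0.18, adjusted p = 0.0225). Both genes had no overlap between genotypes. CRF5 lost its call without any 1 of the Col-0 libraries (0.0506 to 0.0555), and CRF3 without cnd1-3 replicate 1 or 3 or Col-0 replicate 2 or 3 (0.0595 to 0.0802). At an unadjusted p under 0.05 were 4 of the 6, CRF3 to CRF6, as were 4893 of all 17096 tested genes. CRF4 and CRF6 differed by -0.33 and -0.41 on the log2 scale and did not pass (limma adjusted p = 0.157 and 0.106). The log2 fold change was below 0 in 5 of the 6, and the median of the list was -0.37.

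Of 7 other genes described as cytokinin-induced 6 were tested, EXPA1 fell and 0 rose. EXPA1, an expansin gene of cell wall loosening, had 42.4, 48.3 and 41 FPKM in cnd1-3, against 68.7, 81.5 and 80.2 in Col-0 (log2 fold change -0.80, SE 0.09, limma adjusted p = 0.00151). It passed in all 18 alternatives. The median of that list was -0.08. Over the 10 lists outside the type-A family, 41 of 75 genes were tested, 1 rose, 5 fell and 35 did not pass, with a median of 0.01. These 14.6% called lie near the 11.1% of all tested genes. The count was 3 without cnd1-3 replicate 1, and likewise without any 1 of the Col-0 libraries.

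**Figure D5:**
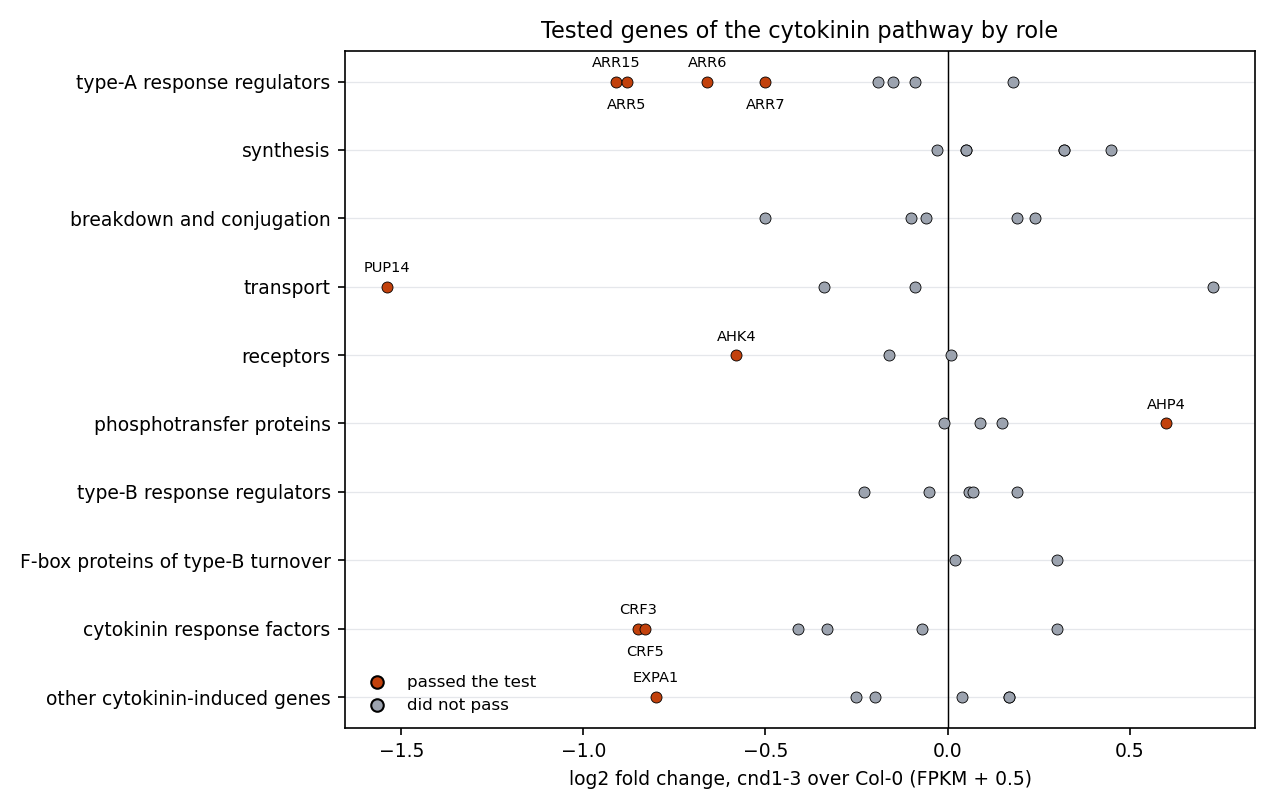
Log2 fold change of FPKM plus 0.5, cnd1-3 over Col-0 (horizontal axis), of each tested gene of the type-A family and of the other cytokinin lists (rows); orange points passed the test and are named, grey points did not. Beside ARR15, ARR5, ARR6 and ARR7 the lower genes are PUP14, AHK4, CRF3, CRF5 and EXPA1, and AHP4 is the higher one.

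The genes whose levels followed the tested members most closely over the 6 libraries were found by the Pearson correlation of log2 FPKM plus 0.5 with the mean centred level of the 8 members. That mean was -0.28, -0.19 and -0.13 in cnd1-3 and 0.33, 0.13 and 0.14 in Col-0, so that Col-0 replicate 1 and cnd1-3 replicate 1 lay at its ends and much of any correlation with it is the difference between genotypes. The 5 closest genes, with correlations from 0.994 to 0.9975, were GATA9 (AT4G32890), a GATA transcription factor gene, AT4G19700, annotated as an S-ribonuclease binding protein, AT5G45490, annotated as a P-loop nucleoside triphosphate hydrolase, PLAT2 (AT2G22170), a PLAT domain protein gene, and AT4G32350, annotated as a regulator of Vps4 activity. All 5 were lower in cnd1-3, by log2 fold changes from -0.53 to -0.38. GATA9 had 3.21, 3.34 and 3.6 FPKM in cnd1-3, against 5.37, 4.5 and 4.68 in Col-0, with no overlap. AT4G32350, at 1.5 ± 0.153 FPKM in cnd1-3 and 2.4 ± 0.351 in Col-0, lost its call in 12 of 17 alternatives, and GATA9 in 5 of 18.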

How the data were processed

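Poly(A) RNA of 3 cnd1-3 and 3 Col-0 seedling samples was sequenced as 150 bp read pairs, per the labels' protocols. The authors deposited 1 table of FPKM per gene and sample; the tools DESeq2, Subread, featureCounts and HISAT2 and the TAIR10 build are listed in the submitters' processing notes, with no version, setting or role. No further scaling between samples is recorded. Gene coordinates, exon lengths and sequences come from the RefSeq copy of TAIR10.1, in which 32548 of the 32948 genes were found, with all 118 listed loci among them. Read numbers were recovered from FPKM and exon length: 99.34% to 99.37% of the values above 0 came out whole, within 0.01; they are not the authors' counts.

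The test was limma 3.58.1 (R 4.3.3) on log2 of FPKM plus 0.5, with an intensity trend in eBayes, for genes with a mean of at least 0.5 FPKM, adjusted by Benjamini and Hochberg over all of them. Fold changes on that scale are drawn toward 0 at low levels. The family and the gene lists were chosen with earlier results of these data known. Named genes are all 10 members and the 5 genes most like the members. Of each other list they are up to 4 called genes by size of change, or the 2 most abundant where none was called. The cell type markers, AHK2, AHK3, AHP6, ARR1, ARR22, ARR24, ENT3, AZG1, CRF4, CRF6, HAT22 and the overlapping genes stand outside that rule. They were named with their values seen. Pairs of relatives were compared by exact permutation tests (scipy 1.17.1), coding sequences aligned end to end with Biopython 1.88. Alternatives were pseudocounts of 0.1 and 1, a minimum of 2 FPKM or none, quantile normalization, median-ratio scaling, eBayes without trend or robust, the replicate number as a block, voom on recovered reads and leaving out each library; removal of the GC and length trend, alone or with the block, was added after seeing the data.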

Additional observations from a re-analysis of the deposited data

How the results depend on the processing

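All 18 alternatives kept the direction of ARR4 to ARR9 and ARR15. Of 144 values for the 8 tested members 131 kept direction and side of the threshold, 8 lost the call and 1 gained it, which was ARR9 with the GC and length trend removed and the replicate block (0.34, adjusted p = 0.0251). ARR16 turned to 0.05 with that trend removed, with or without the block, and to 0.07 and 0.03 without cnd1-3 replicate 2 and Col-0 replicate 3 (-0.21 to 0.07 over the libraries left out). For the 19 other named genes 284 of 338 values were kept, 36 lost and 5 gained the call and 13 turned direction, all of genes that were not called. ARR12 turned to 0.07 under quantile normalization, 0.01 with the trend removed and 0.03 without cnd1-3 replicate 3 (-0.12 to 0.03 over the libraries left out), ARR14 to -0.02 without Col-0 replicate 3 (-0.02 to 0.18), KMD2 to between -0.07 and -0.02 in 3 fits that left out a library, and IPT9 to 0.02 under median-ratio scaling and trend removal and 0.01 under quantile normalization and without cnd1-3 replicate 3. The ratio of ARR16 to ARR17 changed its difference from -0.06 to values up to 0.23 when a library was left out, the lowest being -0.33; the other pairs kept their sign. Leaving out each library in turn gave 2 to 4 changed members, 3 to 6 other cytokinin genes and 906 to 1837 genes in all, against 4, 6 and 1896 with every library; fewer samples were fitted there. With the minimum of 2 FPKM, 4 of 34 other cytokinin genes were called. The share of lower genes among all calls was 68.5%, and 54.3% under median-ratio scaling, 50.5% under quantile normalization and 54.6% with the trend removed; the median of all genes moved by less than 0.1. The labels give both genotypes the replicate numbers 1 to 3, and same-numbered libraries deviated together with correlations of 0.03, 0.16 and 0.26. For cnd1-3 replicates 2 and 3 the same-numbered library was the best match, while replicate 1 correlated best with Col-0 replicate 2 (0.08). The labels name no covariate, so the main fit took the numbers as no pairs. Whether the libraries were paired is not known. With the replicate block 2879 genes were called, and 2896 with the trend removed as well, with 4 and 5 members among them; the cause was not tested. Depth left ARR3 and ARR17 untestable.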
